A study of Drosophila melanogaster with 6 samples.

Results

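Cytochrome P450 genes of Drosophila were taken from the gene tables by symbol (Cyp followed by a digit), which gave 86 of the 17714 genes listed. Among these, Cyp1 encodes a cyclophilin, a peptidyl-prolyl isomerase, and not a P450, so it was set apart, which left 85 P450 genes of 20 families. Of the 85, 2 are pseudogenes by their symbols, Cyp6a15Psi and Cyp6t2Psi. The 6 P450 genes of ecdysteroid synthesis that carry classical names (spo, spok, phm, dib, sad and shd) fell outside the symbol rule and are given as a separate list. RNA came from Kc cells, a Drosophila embryonic cell line with features of blood cells, and was selected for poly(A) before sequencing. The groups were 3 libraries with the genotype "wild type" (WT) and 3 with the genotype "ko" (KO), in a study of CG14906 (mettl4) and the m6A mark on U2 snRNA. No treatment is given for either group.

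P450 enzymes are heme proteins that insert an oxygen atom into their substrates. Most insect P450s sit in the endoplasmic reticulum and take electrons from the reductase Cpr, while those of the mitochondrial clan take them from a ferredoxin served by the reductase dare. In flies, some members make or inactivate the moulting hormone, others break down plant toxins and insecticides in the midgut, Malpighian tubule and fat body, and many have no assigned substrate. Families are numbered by sequence likeness and are grouped into 4 clans, CYP2, CYP3, CYP4 and the mitochondrial clan.

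The libraries held between 9963557 and 18906951 expected counts. The titles of the KO libraries begin with OE, whereas their genotype field says ko, and the RNA of CG14906 was at 18.5 ± 1.91 CPM (counts scaled to a common library total) in WT and 19.7 ± 1.02 in KO (SD, n = 3; adjusted p = 0.435, edgeR). RNA level therefore did not separate the groups at the named gene, and KO stands here for the libraries labelled ko. Replicate 1 of each group stood apart from the other two replicates: the chi-square per gene was 18.4 to 25.3 between replicate 1 and another replicate of its group, against 1.64 between WT replicates 2 and 3 and 2.86 between KO replicates 2 and 3. Ribosomal RNA genes took 5.78% and 5.03% of TPM (transcript abundance corrected for length and depth) in replicate 1 of WT and KO, against 0.341% to 2.46% in the other libraries. The labels do not say whether the libraries came from separate cultures or clones, so the p-values reflect no more than how far these libraries differ, and part of that may be technical. In bulk RNA such as this, fewer cells of a type and less RNA per cell cannot be told apart.

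P450 transcripts were fewer in total in KO, and a different set of genes led them. The deposited TPM of all 85 genes summed to 663, 682 and 682 in the WT libraries and to 587, 571 and 594 in the KO libraries. The groups did not overlap, with means of 676 ± 11.0 in WT and 584 ± 11.7 in KO (SD, n = 3). At least 1 TPM on average was reached by 35 genes in WT and by 40 in KO, and 32 genes reached it in both. The 6 most abundant genes of WT, Cyp12d1-d, Cyp6a8, Cyp12e1, Cyp6a23, Cyp6d4 and Cyp12d1-p, made up 57.3% of P450 TPM there. The 6 most abundant of KO, Cyp6a8, Cyp9f2, Cyp6v1, Cyp4e2, Cyp12e1 and Cyp9f3, made up 46.5%, and 2 of them, Cyp6a8 and Cyp12e1, were also among the leading 6 of WT. In order of mean TPM, Cyp9f2 stood at place 21 in WT and 2 in KO, Cyp4p3 at 39 and 11, Cyp12d1-d at 1 and 7, and Cyp303a1 at 12 and 32.

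The clans differed in direction. Summed TPM of the mitochondrial clan was 204 ± 19.8 in WT and 79.8 ± 13.1 in KO, and that of the CYP4 clan was 57.8 ± 4.96 in WT and 110.1 ± 10.3 in KO (SD, n = 3). The mitochondrial clan thus held 30.1% of P450 TPM in WT and 13.7% in KO, and the CYP4 clan held 8.55% and 18.8%. The CYP3 clan, which includes many of the insecticide-metabolising enzymes, summed to 397 ± 1.75 in WT and 391 ± 9.76 in KO. Its families differed in opposite directions: family 6 summed to 369 ± 8.26 TPM in WT and 288 ± 6.60 in KO, while family 9 summed to 18.3 ± 5.05 in WT and 91.0 ± 8.45 in KO. The CYP2 clan summed to 17.7 ± 2.62 TPM in WT and 2.74 ± 0.494 in KO, and most of both sums was Cyp303a1. In the sums of the mitochondrial, CYP4 and CYP2 clans and of families 6 and 9, no KO library reached the range of the WT libraries. These sums over chosen genes were not tested.

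**Figure D1:**
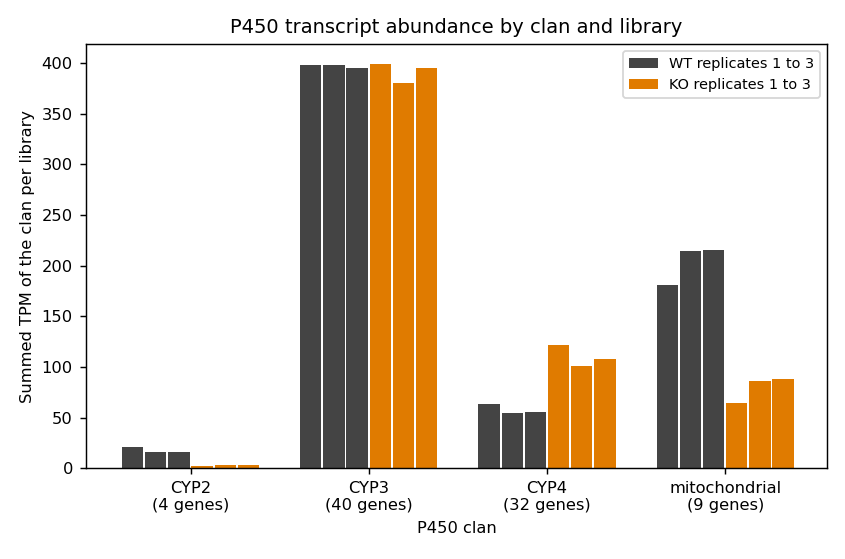
Summed TPM of each P450 clan (horizontal axis, with the number of genes) in each library (vertical axis, TPM); grey bars are WT and orange bars KO, each in the order replicate 1 to 3. The mitochondrial bars lie at 181 to 216 in WT and 64.8 to 88.4 in KO, the CYP4 bars at 54.7 to 63.5 and 101 to 121, and the CYP3 bars of both groups overlap.

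Enough reads for a test were found for 44 of the 85 genes, among 8405 genes tested in all. Of the 44, 14 were higher in KO, which is 31.8% against 27.7% of all genes tested and 11 were lower, which is 25% against 26.5%. In either direction, 25 of the 44 were called, beside 54.1% of all genes tested. A call here is an adjusted p under 0.05 in edgeR's quasi-likelihood test with Benjamini-Hochberg adjustment over all genes tested. Both shares lay near the share over all genes, so the number of calls says nothing about P450 genes in particular. The sizes were spread more widely: 12 members were called at least 2-fold higher (27.3% against 9.17% of all genes tested) and 9 at least 2-fold lower (20.5% against 3.78%). The median size of the log2 fold change was 1.05 over the tested members and 0.33 over all genes tested. Tested members were also less abundant, with a median of 5.45 CPM against 39.6 CPM over all genes tested, and the part of abundance in these sizes was not tested. The median signed log2 fold change was 0.17 over the members and 0.01 over all genes. WT and KO libraries did not overlap for 29 of the 44 members (65.9%, against 63.3% of all genes tested).

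**Figure D2:**
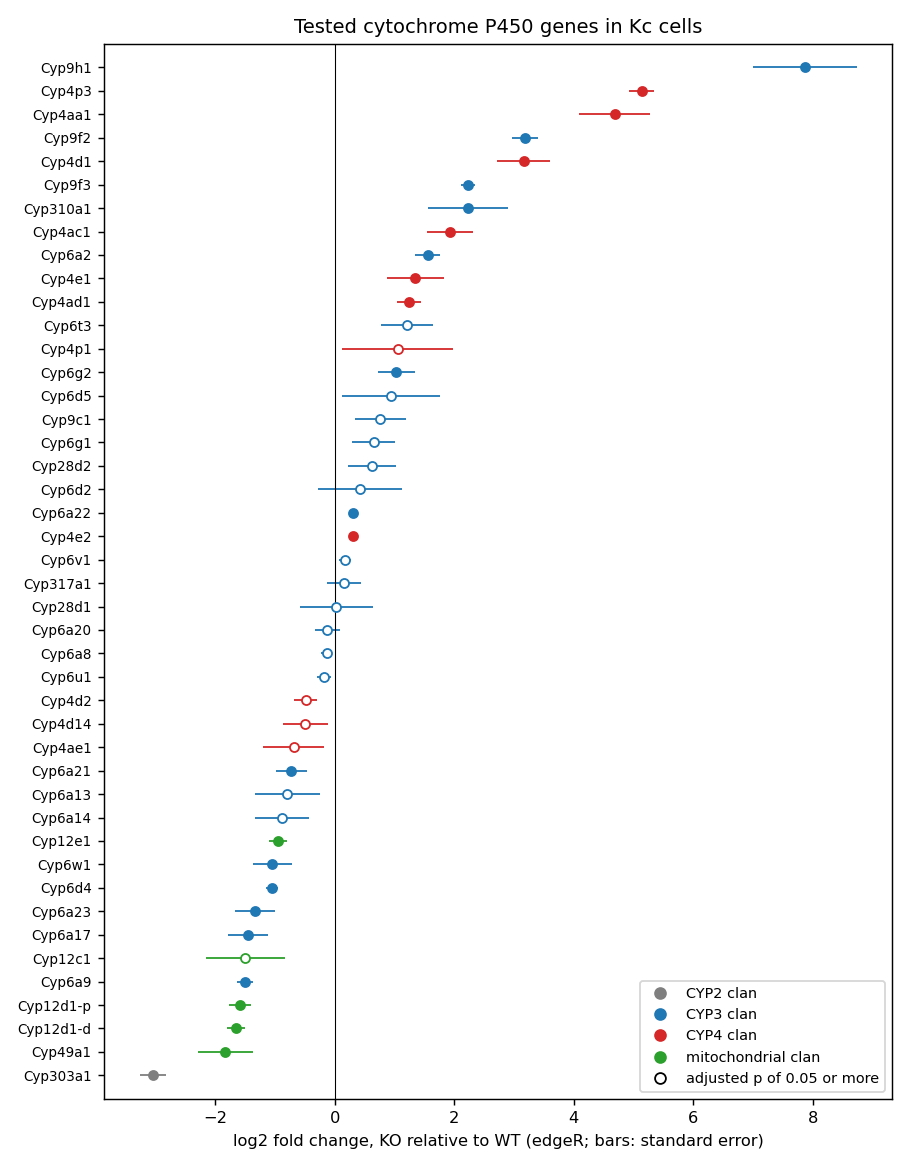
Log2 fold change (horizontal axis, KO relative to WT) with its standard error for the 44 tested P450 genes, ordered by value and coloured by clan; filled points have an adjusted p under 0.05. Filled points of the CYP4 clan lie only to the right of 0 and those of the mitochondrial clan only to the left; the point of Cyp9h1, at 0 in WT, depends on the prior count of the fit and is no measure of its fold.

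In the mitochondrial clan, 4 of 5 tested genes were lower in KO and none was higher, beside 26.5% and 27.7% of all genes tested. The median log2 fold change of the 5 was -1.59. With the replicate number as a block 5 were lower, but the share over all genes in that fit was not taken. The neighbours Cyp12d1-d and Cyp12d1-p, near-identical enzymes that insecticides and other foreign compounds induce in flies, were among the abundant genes that fell. Cyp12d1-d was at 86.4, 120 and 109 CPM in WT and at 28.3, 34.0 and 37.8 in KO, and Cyp12d1-p was at 35.7, 42.7 and 51.9 and at 11.8, 17.3 and 14.2. Every KO library lay below every WT library for both genes, with log2 fold changes of -1.66 (SE 0.15, adjusted p = 0.000134) and -1.59 (SE 0.18, adjusted p = 0.000352). Their reads were shared out between the copies by the authors' counting, so the split between them is uncertain and their calls are not separate results. The sum of the pair does not depend on the split and was 149 ± 22.9 CPM in WT and 47.8 ± 6.70 in KO (SD, n = 3).

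Cyp12e1 was at 72.9, 71.7 and 75.1 CPM in WT and at 28.6, 43.7 and 42.1 in KO. It fell by 0.94 on the log2 scale (SE 0.15, adjusted p = 0.00165) and the groups did not overlap, with KO replicate 1 the lowest. Cyp49a1, the single member of family 49, was at 4.61, 2.19 and 1.78 CPM in WT and at 1.001, 0.619 and 0.781 in KO. Its log2 fold change was -1.83 (SE 0.46, adjusted p = 0.012), again without overlap, and replicate 1 was the highest of each group. Cyp12c1 was at 2.12, 1.60 and 1.47 CPM in WT and at 1.29, 0.387 and 0.0867 in KO, without overlap, but did not pass (log2 fold change -1.497, 95% interval -3.04 to 0.05, adjusted p = 0.0906). With the replicate number as a block it passed (log2 fold change -1.63, adjusted p = 0.0377). The rest of the clan, Cyp12a4, Cyp12a5, Cyp12b2 and Cyp301a1, a cuticle enzyme, had too few reads to be tested.

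In the CYP4 clan, 7 of 11 tested genes were higher in KO and none was lower, beside 27.7% and 26.5% of all genes tested. The median log2 fold change of the 11 was 1.24. With the replicate number as a block, 8 were higher and 1, Cyp4d2, was lower (share over all genes in that fit not taken). All 11 belong to family 4, whose vertebrate members hydroxylate the end of fatty acid chains. The largest rise outside Cyp9h1 was that of Cyp4p3 (arm 2R, 9242320 to 9244410, plus strand, dm6), at 0.789, 0.698 and 0.628 CPM in WT and 29.9, 21.0 and 24.0 in KO. Its log2 fold change was 5.14 (SE 0.20, adjusted p = 5.21e-06), the KO libraries lay close together, and all were far above WT. Cyp4aa1 (arm 2R, 15942864 to 15947266, plus strand) was at 0.850, 0.0997 and 0.157 CPM in WT and at 14.7, 8.51 and 7.55 in KO. It rose by 4.68 on the log2 scale (SE 0.59, adjusted p = 0.000592), with replicate 1 the highest in both groups. Leaving out WT replicate 1 gave 6.13 and leaving out both replicates 1 gave 5.77. Cyp4aa1 shares exon bases with Strn-Mlck on the opposite strand, which itself rose from 7.05 ± 1.45 to 24.0 ± 13.1 CPM (log2 fold change 1.76, adjusted p = 0.00587). Strand use in the counting is not stated, so reads of the shared bases cannot be told apart.

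Cyp4d1 (X, 2159145 to 2162180, minus strand) was at 0.303, 0.199 and 0.262 CPM in WT and at 1.57, 2.24 and 3.47 in KO, a log2 fold change of 3.16 (SE 0.44, adjusted p = 0.000943). Cyp4ac1 was at 0.303, 0.399 and 0.524 CPM in WT and at 1.36, 1.39 and 2.08 in KO (log2 fold change 1.93, SE 0.38, adjusted p = 0.00437). Both were low in WT and neither overlapped between the groups. Cyp4ad1 was at 11.2, 6.78 and 7.17 CPM in WT and at 22.7, 18.4 and 18.9 in KO (log2 fold change 1.24, SE 0.20, adjusted p = 0.00177). Its neighbour Cyp4e2, the most abundant member of the family, was at 39.5, 38.8 and 38.0 CPM in WT and at 46.0, 49.1 and 48.0 in KO. The rise of Cyp4e2 was small but without overlap (log2 fold change 0.30, SE 0.06, adjusted p = 0.00598). Cyp4e1 was at 0.789, 1.496 and 0.786 CPM in WT and at 4.07, 1.86 and 1.56 in KO (log2 fold change 1.34, SE 0.48, adjusted p = 0.046). Its call was lost with DESeq2 (adjusted p = 0.0564), with limma on log2(TPM + 1) and log2(TPM + 0.1) (0.0631 and 0.0549) and with WT replicates 2 and 3 summed (0.0669). It was also lost without any one of WT replicate 1, WT replicate 3, KO replicate 1 and KO replicate 2 (adjusted p 0.0603 to 0.148), and the log2 fold change was 0.79 without KO replicate 1 and 0.70 without both replicates 1 (adjusted p = 0.125).

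**Figure D3:**
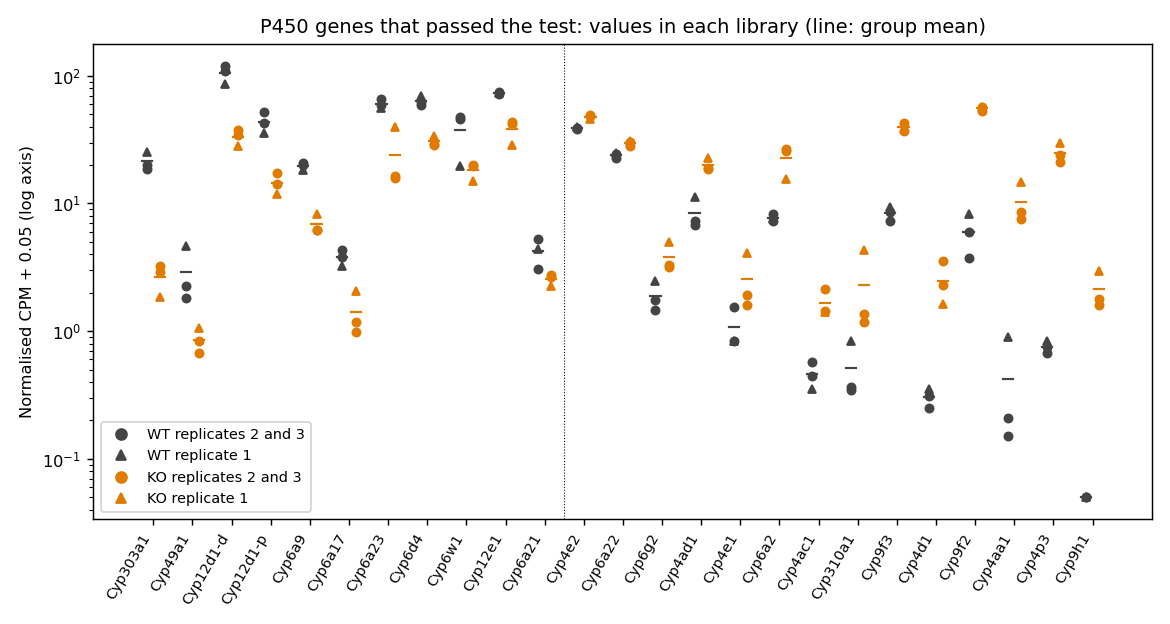
Normalised CPM plus 0.05 (vertical log axis) in each library for the 25 P450 genes that passed the test, ordered by fold change; grey is WT, orange is KO, triangles are replicate 1, circles replicates 2 and 3, and lines are group means. Genes left of the dotted line were lower in KO, and for Cyp6w1 the lowest WT library, at 19.7 CPM, lies under the highest KO library, at 19.9.

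In family 9 of the CYP3 clan, 3 of its 4 tested genes were higher in KO and none was lower, beside 27.7% and 26.5% of all genes tested. Cyp9f2 (arm 3R, 12403340 to 12406028, minus strand) was at 8.25, 3.69 and 5.92 CPM in WT and at 57.2, 53.1 and 56.6 in KO. Its neighbour Cyp9f3 (12396007 to 12398929, minus strand) was at 9.41, 8.58 and 7.28 CPM in WT and at 38.4, 36.9 and 42.8 in KO. The log2 fold changes were 3.18 (SE 0.22, adjusted p = 5e-05) and 2.23 (SE 0.11, adjusted p = 1.61e-05), and both genes were several-fold higher in every KO library than in any WT library. Part of their reads were shared out among genes, and the sum of the pair, 14.4 ± 2.88 CPM in WT and 95.0 ± 4.76 in KO (SD, n = 3), holds whatever the split between them. Cyp9h1 (arm 2R, 12840813 to 12842558, minus strand) had no read in any WT library and was at 2.93, 1.55 and 1.73 CPM in KO. With 81 expected counts over the KO libraries, it was at least 32.0-fold higher than the floor of 3 counts over the WT group (adjusted p = 0.00111). The fourth tested gene, Cyp9c1, was at 11.1, 5.78 and 5.60 CPM in WT and at 20.7, 7.35 and 10.2 in KO, with the groups overlapping (log2 fold change 0.76, 95% interval -0.24 to 1.76, adjusted p = 0.168). With the replicate block it passed (log2 fold change 0.74, adjusted p = 0.00543).

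Family 6, the largest family with 25 genes, was mixed: of 19 tested genes, 6 were lower in KO, 3 were higher and 10 did not pass (7 lower and 5 higher with the replicate block). Over all genes tested, 26.5% were lower and 27.7% higher in the fit without that block. The falls of family 6 included abundant genes. Cyp6d4 was at 69.4, 58.8 and 61.9 CPM in WT and at 33.8, 28.9 and 28.8 in KO (log2 fold change -1.05, SE 0.10, adjusted p = 0.000154). Cyp6a23 was at 56.0, 59.3 and 65.9 CPM in WT and at 39.7, 15.7 and 16.4 in KO (log2 fold change -1.33, SE 0.34, adjusted p = 0.0127). KO replicate 1 was the nearest to WT for Cyp6a23, whose log2 fold change was -1.92 without that library. Cyp6a9 was at 18.1, 20.6 and 19.8 CPM in WT and at 8.15, 6.19 and 6.16 in KO (log2 fold change -1.51, SE 0.13, adjusted p = 0.000134). Cyp6a17, which in flies acts on temperature preference, was at 3.22, 3.79 and 4.24 CPM in WT and at 2.001, 0.928 and 1.13 in KO (log2 fold change -1.46, SE 0.33, adjusted p = 0.0081). None of these 4 genes overlapped between the groups. Reads of Cyp6a23, Cyp6a9 and Cyp6a17 were in part shared out among genes, so the value of each is less certain.

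The other 2 falls of family 6 lost their call in several other fits. Cyp6w1 was at 19.7, 45.6 and 47.1 CPM in WT and at 15.0, 19.9 and 19.5 in KO, and was the only called member whose groups overlapped. Its log2 fold change was -1.04 (SE 0.32, adjusted p = 0.0274). The call was lost without any single library other than WT replicate 1 (adjusted p 0.0582 to 0.0912), with WT replicates 2 and 3 summed (0.0793) and against the median of its 1 Mb segment (0.0508). It was kept without WT replicate 1 (log2 fold change -1.37, adjusted p = 0.000385), without both replicates 1 (-1.245, adjusted p = 8.95e-08) and with the replicate block (-0.97, adjusted p = 0.004). Cyp6a21 was at 4.37, 5.19 and 3.04 CPM in WT and at 2.22, 2.71 and 2.60 in KO (log2 fold change -0.73, SE 0.26, adjusted p = 0.0483). It lost its call without any single library other than WT replicate 3 (adjusted p 0.0911 to 0.15) and without both replicates 1 (0.112). The call was also lost with WT replicates 2 and 3 summed (0.061) and with DESeq2 (0.0846). Without the count filter (0.0542) and with a filter at a mean of 1 CPM (0.0501) it did not pass either.

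Cyp6a2, a phenobarbital-inducible enzyme overproduced in insecticide-resistant strains, was at 7.53, 7.18 and 8.27 CPM in WT and at 15.6, 26.6 and 25.8 in KO. It rose by 1.55 on the log2 scale (SE 0.21, adjusted p = 0.000798) without overlap, and KO replicate 1 was the lowest of its group. Cyp6a22 rose slightly, from 25.0, 22.8 and 24.4 CPM to 30.7, 30.5 and 28.3 (log2 fold change 0.31, SE 0.07, adjusted p = 0.00988). Cyp6g2 was at 2.43, 1.695 and 1.41 CPM in WT and at 4.93, 3.25 and 3.12 in KO (log2 fold change 1.03, SE 0.31, adjusted p = 0.0262). Its call was lost without WT replicate 2, WT replicate 3 or KO replicate 1 (adjusted p 0.0803, 0.0967 and 0.0693), with WT replicates 2 and 3 summed (0.078) and against the median of its 1 Mb segment (0.0625). Cyp6g2 kept its call without both replicates 1 (log2 fold change 1.06, adjusted p = 0.00472) and with the replicate block (1.03, adjusted p = 0.00694). Its neighbour Cyp6g1, the gene whose overexpression gives DDT resistance in wild flies, was low, at 1.03, 0.997 and 0.576 CPM in WT and at 1.57, 1.39 and 1.04 in KO (log2 fold change 0.65, 95% interval -0.20 to 1.496, adjusted p = 0.166).

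The most abundant family 6 genes that did not pass were Cyp6a8 and Cyp6v1. Cyp6a8, an inducible enzyme of the same subfamily as Cyp6a2, was at 99.2, 96.4 and 88.7 CPM in WT and at 73.7, 94.4 and 90.4 in KO (log2 fold change -0.14, 95% interval -0.37 to 0.09, adjusted p = 0.271). Cyp6v1 was at 64.9, 69.9 and 65.0 CPM in WT and at 63.4, 81.6 and 80.8 in KO (log2 fold change 0.18, 95% interval -0.06 to 0.42, adjusted p = 0.18). Replicate 1 was the lowest KO library for both genes. Without KO replicate 1, Cyp6v1 passed as higher (log2 fold change 0.28, adjusted p = 0.00563). Cyp6v1 also passed without both replicates 1 (0.27, adjusted p = 0.000514) and against the median of its 1 Mb segment (0.31, adjusted p = 0.0414). It passed in no other alternative fit.

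Elsewhere in the CYP3 clan, Cyp310a1 was at 0.789, 0.299 and 0.314 CPM in WT and at 4.29, 1.31 and 1.13 in KO (log2 fold change 2.22, SE 0.67, adjusted p = 0.0258). Without KO replicate 1 the log2 fold change was 1.33 (adjusted p = 0.0616), and without WT replicate 1 it was 2.83. It was 1.95 without both replicates 1 (adjusted p = 0.00316) and 2.20 with the replicate block (adjusted p = 0.00216). Besides the fit without KO replicate 1, the call was lost without WT replicate 2 or 3 (adjusted p 0.0789 and 0.0918) and with these 2 summed (0.0728). The tested genes of family 28, Cyp28d1 and Cyp28d2, and Cyp317a1 did not pass. Cyp28d1 was at 8.86, 4.09 and 3.72 CPM in WT and at 11.3, 2.63 and 3.04 in KO, so its spread between replicates was far larger than the difference between the group means.

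Cyp303a1, which is needed for the formation of sensory bristles, showed the largest fall of any member and was the only tested gene of the CYP2 clan (arm 2L, 16294183 to 16296969, plus strand). It was at 25.2, 18.6 and 20.1 CPM in WT and at 1.79, 2.86 and 3.21 in KO. Its log2 fold change was -3.04 (SE 0.22, adjusted p = 5.99e-05), and each KO library was far under each WT library. It shares exon bases with heix on the opposite strand, which was at 63.6 ± 3.74 CPM in WT and 65.4 ± 2.09 in KO (log2 fold change 0.04, adjusted p = 0.648).

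Of the members that act on ecdysteroids, Cyp18a1 had too few reads to be tested, and Cyp6t3 was tested and did not pass. Cyp18a1, the enzyme that inactivates ecdysone and its active form by oxidising the side chain (X, 18688538 to 18693042, minus strand), had 7, 4 and 6 expected counts in WT and 5, 7 and 5 in KO, which is 0.425, 0.399 and 0.314 CPM against 0.357, 0.541 and 0.434. The groups overlapped, and no difference was detected without the count filter (log2 fold change 0.19, SE 0.56, adjusted p = 0.819). On so few reads, a small difference may have gone unseen. Cyp6t3, which is required for ecdysteroid synthesis in the larval prothoracic gland, was at 1.27, 1.197 and 0.943 CPM in WT and at 4.29, 1.93 and 1.56 in KO. All KO libraries lay above all WT libraries, with KO replicate 1 far above the rest, but the test was missed narrowly (adjusted p = 0.0501). The log2 fold change was 1.203, with a standard error of 0.44 and a 95% interval from 0.18 to 2.23. Without KO replicate 1 it was 0.62 (adjusted p = 0.138), and without both replicates 1 it was 0.75 (adjusted p = 0.0706). It passed with the replicate block (1.13, adjusted p = 0.0251), without KO replicate 3 (1.45, adjusted p = 0.0339) and, barely, with a filter at a mean of 1 CPM (1.21, adjusted p = 0.05). Cyp6t3 shares exon bases with CG8858 on the opposite strand, which was at 155 ± 7.37 CPM in WT and 121 ± 5.47 in KO. As strand use in the counting is not stated, reads of the shared bases cannot be told apart.

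Of the 11 listed genes of ecdysteroid synthesis outside the symbol rule, 2 were tested, 1 higher and 1 lower in KO. The shares over all genes tested were 27.7% higher and 26.5% lower. The 6 classically named P450 genes spo, spok, phm, dib, sad and shd were nearly unread: none exceeded 0.309 CPM in any library, and none was tested. The gene molting defective (mld), a zinc finger factor that activates some of them in the prothoracic gland, rose from 100.4 ± 12.7 to 163 ± 15.2 CPM (log2 fold change 0.70, adjusted p = 0.00125). Npc1a, which moves sterols out of the endosome, fell from 75.9 ± 1.79 to 65.4 ± 3.78 CPM (log2 fold change -0.21, adjusted p = 0.0212).

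The 41 members that were not tested fell into 3 classes. Silent genes, with an expected count of 0 in all 6 libraries, numbered 9: Cyp6a16, Cyp6t1, Cyp9b2, Cyp308a1, Cyp4d21, Cyp313a2, Cyp313a3, Cyp313a5 and Cyp316a1. A count of 0 over the 6 libraries allows up to 0.0357 CPM (3 counts over their summed size, counting error only). Cyp308a1 and Cyp316a1 are the only genes of their families, and the Cyp313 genes make up a family of 6, of which 3 were silent. Near silent genes, with a mean under 0.1 TPM in both groups, numbered 12, with no more than 4 expected counts in any library. They included Cyp4g1, the enzyme that makes cuticular hydrocarbons in oenocytes, with 1, 1 and 2 counts in WT and 0, 1 and 1 in KO. The other 20 untested genes averaged between 0.0533 and 0.953 TPM over the 6 libraries and include both pseudogenes.

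Without the count filter, 76 members had reads, and 2 of the untested genes were called higher in KO and none lower. The share over all genes in that fit was 15.5% higher and 16.9% lower. Cyp4g15, a relative of Cyp4g1 known from the fly nervous system, had no read in WT and 3, 9 and 11 counts in KO, at least 9.09-fold more than the floor of 3 counts over the WT group (adjusted p = 0.00427). Cyp4c3 had 1, 1 and 0 counts in WT and 6, 3 and 6 in KO (log2 fold change 2.85, adjusted p = 0.0368). Both belong to family 4.

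Many P450 genes sit beside each other: 46 members formed 16 blocks in which neighbouring starts were under 20 kb apart. A called member was found in 8 of these blocks, and over all genes tested 54.1% were called. In 4 of them only 1 gene was called, and of the 4 with at least 2 called genes, 3 had calls in 1 direction only. On arm 2R, Cyp4ad1, Cyp4e2 and Cyp4e1 were all higher and the Cyp12d1 pair was lower, and on arm 3R Cyp9f3 and Cyp9f2 were both higher. Reads of the Cyp12d1 pair and of Cyp9f3 and Cyp9f2 were in part shared out among genes. The calls within each of these pairs are therefore not separate results. The block that ran both ways was the largest, with 8 genes on arm 2R: Cyp6a22 was higher, Cyp6a17, Cyp6a23 and Cyp6a9 were lower, Cyp6a20, Cyp6a8 and Cyp317a1 did not pass, and Cyp6a19 was not tested. In other blocks a called gene stood beside neighbours that did not pass. Cyp4d1 lay beside Cyp4d14, Cyp4d2 and Cyp4ae1, whose log2 fold changes were -0.49, -0.49 and -0.69, and with the replicate block Cyp4d2 was called lower (adjusted p = 0.0478). Cyp4p3 lay beside Cyp4p1, at 3.76, 0.598 and 0.524 CPM in WT and 7.43, 1.16 and 1.74 in KO (log2 fold change 1.05, adjusted p = 0.366; with the replicate block 1.16, adjusted p = 0.0115). In the 1 Mb segments around tested members, the median over all tested genes of a segment lay, on the log2 scale, between -0.59 and 0.54, with the lowest at the Cyp4d1 block and the highest at the Cyp9f3 and Cyp9f2 block.

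**Figure D4:**
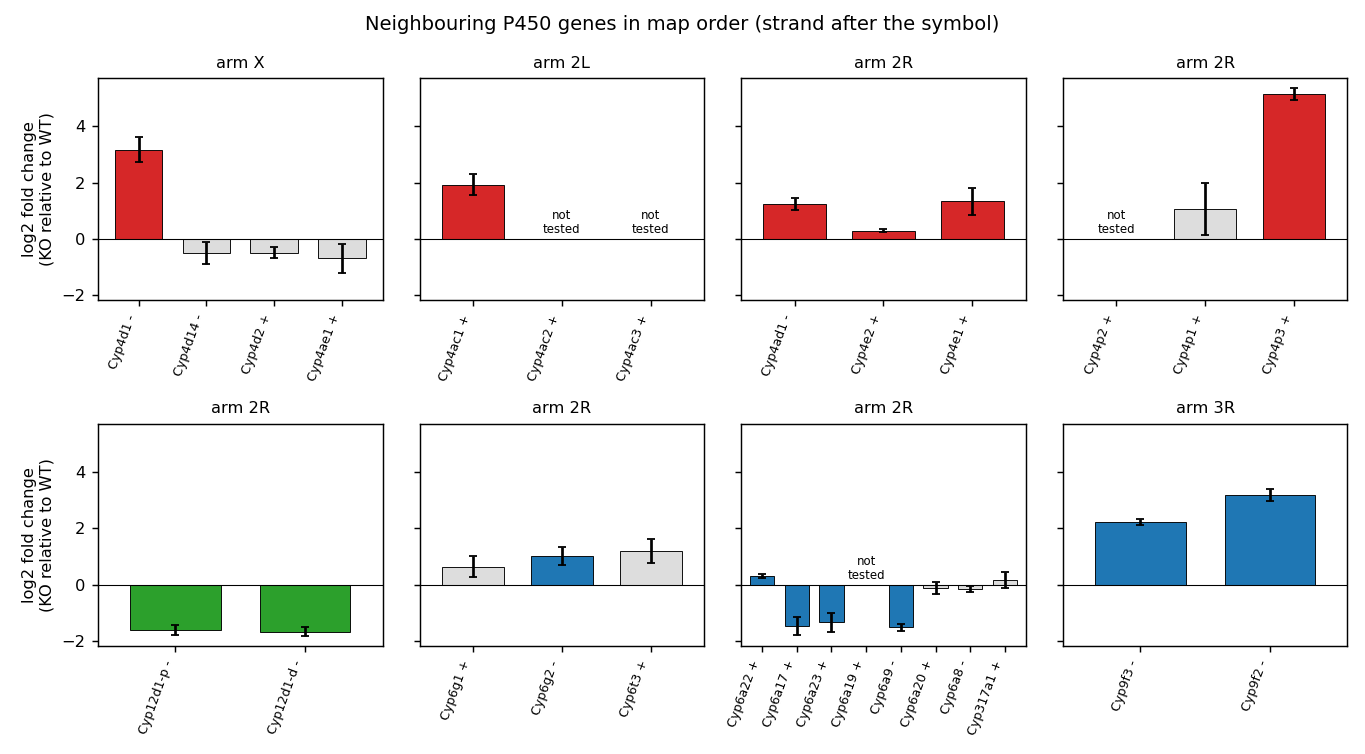
Log2 fold change with its standard error (vertical axis, KO relative to WT) for the genes of the 8 neighbour blocks with a called member, in map order (horizontal axis, strand after the symbol); coloured bars passed the test, light grey bars did not. Of the 4 blocks with at least 2 called genes, the called bars point both ways in the 8-gene block on arm 2R, where Cyp6a22 is at 0.31 and its neighbours Cyp6a17, Cyp6a23 and Cyp6a9 are between -1.51 and -1.33.

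Replicate 1 was the highest library of both groups for 21 of the 44 tested members, or 47.7%, against 23% of all genes tested. Of these 21, 9 were called, beside 54.1% of all genes tested. For 13 members, replicate 1 of a group was at least 2-fold above both other replicates. Cyp6d5 was at 4.01, 0.598 and 1.15 CPM in WT and at 7.86, 1.701 and 1.73 in KO, and Cyp6d2 at 3.03, 1.40 and 0.786 and at 4.65, 1.16 and 1.13. The difference between replicates was thus larger than that between the groups for Cyp6d5 and Cyp6d2. With the replicate block, Cyp6d5 passed as higher (log2 fold change 0.95, adjusted p = 0.0177), and Cyp4d2 and Cyp6a14 passed as lower (log2 fold changes -0.50 and -0.96, adjusted p = 0.0478 and 0.0389).

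The enzymes that serve P450s were also compared. Of 7 tested electron donor genes, 3 were lower in KO and 1 was higher, beside 26.5% lower and 27.7% higher over all genes tested. Cpr, the reductase of all microsomal P450s, was at 341 ± 12.5 CPM in WT and 274 ± 26.9 in KO (log2 fold change -0.32, adjusted p = 0.0116). Cytochrome b5 (Cyt-b5) was at 322 ± 2.75 and 268 ± 5.39 CPM (log2 fold change -0.27, adjusted p = 0.00224), and CG3566 was slightly lower and Fdx2, a mitochondrial ferredoxin, slightly higher. The reductase dare and Fdx1 of the mitochondrial chain did not pass (adjusted p = 0.414 and 0.711). Of 9 tested genes of heme synthesis and breakdown, 1 was lower and none was higher: Alas, the first enzyme of heme synthesis, was at 35.3 ± 7.49 CPM in WT and 25.6 ± 0.529 in KO (log2 fold change -0.46, adjusted p = 0.035).

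Of 7 tested regulators of the response to foreign compounds and related hormones, 3 were higher and 3 lower in KO, beside the same shares of 27.7% and 26.5% over all genes. Keap1, which holds the activator cnc in check, rose from 92.02 ± 6.56 to 151 ± 14.3 CPM (log2 fold change 0.71, adjusted p = 0.000461), and cnc itself rose by 0.20 on the log2 scale (adjusted p = 0.0152). The small Maf partner of cnc, maf-S, fell from 45.7 ± 0.381 to 30.3 ± 2.89 CPM (log2 fold change -0.59, adjusted p = 0.000946). The paralogous juvenile hormone receptors gce and Met both fell, gce from 179 ± 10.4 to 109.9 ± 7.497 CPM (log2 fold change -0.71, adjusted p = 0.000205) and Met by 0.45 on the log2 scale (adjusted p = 0.0124). The nuclear receptor Hr96, which responds to foreign compounds, rose by 0.26 on the log2 scale (adjusted p = 0.026). These changes were smaller than those of most called P450 genes.

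Marker lists of blood cells and of tissues in which flies use P450s were read in the same libraries. Their counts of calls stand beside 27.7% higher and 26.5% lower over all genes tested. Of 9 plasmatocyte and Kc markers, 4 were higher, 2 were lower, 2 did not pass and 1 was not tested in KO, and their summed CPM ran from 4685 to 6915 in WT and from 6788 to 10639 in KO. Hml, a defining hemocyte gene, was at 4174 ± 700.4 CPM in WT and 4494 ± 719 in KO, whereas NimC1 and Sr-CI averaged 0.202 and 0.757 CPM in WT. Pxn, an extracellular matrix peroxidase, rose from 34.7 ± 13.1 to 615 ± 264 CPM (log2 fold change 4.15, adjusted p = 0.000288), and the collagen IV genes vkg and Col4a1 rose by 1.42 and 1.46 on the log2 scale (adjusted p = 0.0125 and 0.00962). The GATA factor srp rose by 0.18 on the log2 scale (adjusted p = 0.0339), crq fell by 0.30 (adjusted p = 0.00951), and eater, a phagocytic receptor, fell from 150.0 ± 3.99 to 35.1 ± 2.42 CPM (log2 fold change -2.10, adjusted p = 2.27e-06). Of the 11 fat body markers, 4 were tested, 1 higher and 1 lower, and the list summed to between 11.4 and 17.2 CPM in WT and between 5.20 and 8.72 in KO. Lsp1gamma was at 0 in every library, Lsp2 and Fbp2 were at 0 in WT, and most of the fat body sum in WT was Lsp1beta, a larval storage protein, which fell from 10.1 ± 1.85 to 0.561 ± 0.295 CPM (log2 fold change -4.13, adjusted p = 0.000102). The yolk protein gene Yp3 rose from 0.732 ± 0.337 to 2.21 ± 0.642 CPM (log2 fold change 1.61, adjusted p = 0.017). Of the 10 midgut markers, 4 were at 0 in all libraries, 1 was tested and none was called, and the sum of 26.2 to 42.2 CPM in WT and 28.5 to 45.0 in KO was nearly all LManII. Malpighian tubule markers summed to between 4.61 and 5.58 CPM in WT and 4.94 and 8.08 in KO, with Uro lower and NaPi-T higher. Among 6 oenocyte markers, 2 were higher, and the sum of 505 to 560 CPM in WT and 662 to 759 in KO was almost entirely the widely expressed desaturase Desat1. The part of these markers in the P450 results was not tested.

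Cyp1, the cyclophilin taken by the symbol rule, was at 872, 892 and 897 CPM in WT and at 824, 923 and 963 in KO, with the groups overlapping (log2 fold change 0.03, 95% interval -0.14 to 0.19, adjusted p = 0.779).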

How the data were processed

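Each library has a file of RSEM gene estimates, as deposited by the authors: expected counts, with fractions where a read matching several genes was divided among them, and TPM, relative to the sum over all genes. The deposited transcript lengths were used to check gene models only, and the FPKM column was not used. Per the submitters' processing notes, CASAVA 1.7, cutadapt, STAR 2.7.0f and RSEM 1.3.0 were used with dm6. The annotation release is not given in the sources used here, nor is strand use.

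Expected counts were rounded and tested over all genes in R 4.3.3 with edgeR 4.0.16 (quasi-likelihood F-test, TMM scaling, Benjamini-Hochberg adjusted p-values, and filterByExpr at its minimum count of 10), after a check on simulated data. CPM values use TMM-scaled totals, and a standard error is the size of the log2 fold change divided by the square root of F. Alternatives used DESeq2 1.42.0 and limma 3.58.1. The depth of 9963557 to 18906951 counts per library limits what can be said of genes with few reads, and floors cover counting error only, while the intervals of fold changes come from the fit and include the spread between libraries. Non-whole counts (over 0.005 from a whole number) were found in at least 3 libraries for 17 P450 genes, and 18 tested members share exon bases with another gene of the Ensembl annotation, among them 6 of the 25 called. Cyp6a21 was not found in that annotation by its identifier.

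Members and lists were chosen with earlier results of these data known. Named with every library's value are both ecdysteroid members, the up to 12 largest rises and falls that passed, and the 6 most abundant members; of other lists, Cpr and up to 3 called genes of lowest adjusted p. Cyp6a22, Cyp12c1, Cyp4p1, Cyp9c1, Cyp6g1, Cyp28d1, Cyp6d5, Cyp6d2, Cyp4g1, Cyp4g15, Cyp4c3 and some list genes were added after their values were seen. Libraries of the same number deviated together from their group means (r of 0.52, 0.15 and 0.40 for numbers 1, 2 and 3), so the fit with the number as a block is given where it changes a call, but WT replicate 2 with KO replicate 3 gave 0.38, so only number 1 is clearly paired.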

Additional observations from a re-analysis of the deposited data

How the results depend on the processing

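Over 16 alternatives, the number of members higher in KO was 11 to 18 and lower 9 to 14, against 14 and 11. The number of members tested was 43 to 76, against 44, with 60 in DESeq2 and 76 without the count filter. Shares over all genes were taken only for the fit given above and the fit without the count filter. These counts therefore cannot be compared directly. DESeq2 gave 14 and 10, no count filter 16 and 10, a mean of at least 1 CPM 15 and 10, DESeq2-type size factors in edgeR 14 and 11, and limma on log2(TPM + 1) or log2(TPM + 0.1) 13 and 13. Leaving out 1 library at a time gave 11 to 15 higher and 9 to 11 lower, leaving out both replicates 1 gave 16 and 13, summing WT replicates 2 and 3 gave 11 and 9, and setting each gene against its 1 Mb segment's median gave 14 and 9. With the replicate number as a block, 18 were higher and 14 lower; the block changed the calls of Cyp4d2, Cyp4p1, Cyp9c1, Cyp6a14, Cyp6t3, Cyp12c1 and Cyp6d5 and no other call among the members. Of the 25 called members, 20 kept their call and direction under every alternative, and Cyp4e1, Cyp310a1, Cyp6w1, Cyp6g2 and Cyp6a21 lost it under some. None of the 27 genes recomputed under the alternatives changed sign. Outside these, Cyp28d1 and Cyp1, near 0 at 0.03 and 0.03 on the log2 scale, were at -0.01 and -0.01 without the count filter. Without ribosomal RNA and mitochondrial genes, the difference in summed P450 TPM (KO minus WT) was -85.0, against -91.9. The cause of these shifts was not tested. Values under about 1 CPM rest on few reads, and differences there may go undetected.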
